A study of Mus musculus with 8 samples.

Results

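Sites where the RNA-binding protein Qki-5 and the nuclear receptor PPARb both had a peak, in both freshly isolated and differentiated mouse oligodendrocytes, numbered 813 of the 1391 PPARb peaks of the isolated cells on chromosomes 1 to 19, X and Y. A peak of that list was taken when the centres of an isolated-cell Qki-5 peak, a differentiated-cell Qki-5 peak and a differentiated-cell PPARb peak each lay at most 199 bp from its own centre. The sites were therefore chosen by peak calls and positions in 4 libraries, and heights in those 4 libraries are given as a description with no test. The isolated oligodendrocytes came straight from brains of C57BL6 mice, at passage 0, captured on magnetic beads through O4, a surface antigen that late precursors carry as well as mature cells. The differentiated oligodendrocytes were grown from neural stem cells, of a hybrid strain of FvB and C57BL6, at passage 7, in a medium with IGF-1 and T3, and they carried ectopic PPARb with an HA tag. No tagged receptor is named for the isolated cells, so strain, passage, culture and added PPARb all differed between the kinds of cell and cannot be told apart. Chromatin immunoprecipitation with sequencing (ChIP-seq) used antibodies against PPARb and Qki-5 in both kinds of cell, and in differentiated cells also against RNA polymerase II (Pol II) and the HA tag. Each of these 6 groups and each of the 2 inputs was 1 library, so no value has a replicate error and no test between groups was possible.

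Peroxisome proliferator-activated receptors are transcription factors that fatty acids activate. They bind DNA as dimers with retinoid X receptors, at direct repeats of the word AGGTCA set 1 base apart, and are best known for switching on genes of fatty acid oxidation. Qki-5 is the nuclear isoform of Quaking, which binds RNA at words such as ACTAAC (written as DNA) and is known in oligodendrocytes for its part in the splicing and stability of myelin RNAs and in myelination. Its ChIP signal reports chromatin to which the protein is near or attached, not the RNA it binds. Oligodendrocytes make large amounts of membrane lipid for myelin, and they draw on both lipid synthesis and fatty acid breakdown.

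Most of the shared sites lay at promoters, and 473 of the 813 had their isolated-cell PPARb centre inside a RefSeq promoter window, which runs from 250 bases before an annotated start to 50 after it (build GRCm38.p6, the same as mm10). Windows of 3 of the sites that stood highest by height in all 4 libraries are shown first, as examples. They are Hjurp (chr1:88277530-88277829, minus strand), Calm3 (chr7:16923983-16924282, minus strand) and Nup133 (chr8:123949216-123949515, minus strand). Capitals mark, on either strand, the word GGGCGG of SP and KLF factors, the word CCGGAAG of ETS factors, the word CCAAT of the factor NFY and the cyclic AMP response element TGACGTCA, and a window is written 5′ to 3′ along its transcript.
Hjurp: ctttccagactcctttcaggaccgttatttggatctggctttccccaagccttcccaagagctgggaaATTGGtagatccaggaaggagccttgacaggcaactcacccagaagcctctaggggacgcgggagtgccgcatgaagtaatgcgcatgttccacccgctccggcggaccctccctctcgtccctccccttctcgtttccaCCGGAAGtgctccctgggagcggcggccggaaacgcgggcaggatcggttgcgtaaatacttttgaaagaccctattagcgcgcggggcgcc
Calm3: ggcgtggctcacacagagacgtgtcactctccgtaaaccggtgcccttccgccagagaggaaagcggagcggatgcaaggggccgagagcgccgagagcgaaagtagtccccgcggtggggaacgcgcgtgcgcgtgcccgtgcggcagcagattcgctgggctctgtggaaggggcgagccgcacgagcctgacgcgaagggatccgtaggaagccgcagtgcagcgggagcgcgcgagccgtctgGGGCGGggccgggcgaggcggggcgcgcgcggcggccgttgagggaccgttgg
Nup133: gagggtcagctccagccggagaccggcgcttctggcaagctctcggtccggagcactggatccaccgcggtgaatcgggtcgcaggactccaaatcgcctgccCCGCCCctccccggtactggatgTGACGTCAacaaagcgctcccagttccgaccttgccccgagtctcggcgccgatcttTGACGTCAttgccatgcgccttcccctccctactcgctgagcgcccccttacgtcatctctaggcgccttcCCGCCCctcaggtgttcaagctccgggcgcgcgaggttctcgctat
The peak centre fell on base 190 of the Hjurp window, base 74 of the Calm3 window and base 175 of the Nup133 window, counted from the 5′ end. The Nup133 window held 2 copies of the cyclic AMP response element, and the Hjurp window held the ETS word. The cyclic AMP element was rare, in 18 of 473 shared-site windows (3.81%). It was in 3.87% of windows at the other differentiated-cell sites of both factors and in 1.79% of all windows. None of the 3 windows held AGGTCA.

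The next 3 windows belong to the shared sites with the tallest HA peaks, where the tagged receptor itself gave the highest signal among shared sites. They are Mlycd (chr8:119394644-119394943, plus strand), Lpcat3 (chr6:124662854-124663153, plus strand) and Etfa (chr9:55512194-55512493, minus strand). Here capitals mark each stretch with the fewest mismatches to the receptor's repeat AGGTCANAGGTCA on either strand, where N is any base.
Mlycd: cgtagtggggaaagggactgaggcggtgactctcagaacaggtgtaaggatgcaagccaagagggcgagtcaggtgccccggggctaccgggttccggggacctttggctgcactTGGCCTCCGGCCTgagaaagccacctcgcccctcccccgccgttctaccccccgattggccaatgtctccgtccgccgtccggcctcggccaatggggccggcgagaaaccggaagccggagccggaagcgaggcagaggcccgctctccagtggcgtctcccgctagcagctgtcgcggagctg
Lpcat3: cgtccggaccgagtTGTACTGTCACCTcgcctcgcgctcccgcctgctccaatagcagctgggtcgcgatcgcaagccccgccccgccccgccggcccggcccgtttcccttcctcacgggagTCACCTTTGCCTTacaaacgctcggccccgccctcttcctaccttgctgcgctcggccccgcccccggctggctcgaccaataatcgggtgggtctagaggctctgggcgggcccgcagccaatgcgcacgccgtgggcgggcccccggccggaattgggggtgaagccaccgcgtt
Etfa: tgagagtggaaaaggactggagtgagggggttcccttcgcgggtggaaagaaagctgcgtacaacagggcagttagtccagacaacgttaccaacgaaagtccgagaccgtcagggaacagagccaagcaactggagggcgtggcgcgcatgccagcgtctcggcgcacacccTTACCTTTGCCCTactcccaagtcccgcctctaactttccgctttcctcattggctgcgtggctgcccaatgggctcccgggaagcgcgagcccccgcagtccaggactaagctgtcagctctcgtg
The marked stretch of Etfa had 2 mismatches to the repeat and began at base 174, with the peak centre on base 166. That of Mlycd had 3 mismatches and began at base 116, with the peak centre on base 75. Lpcat3 had a pair of stretches with 3 mismatches each, which began at bases 15 and 124, on either side of the peak centre on base 91. The window of Klf11, with the next tallest HA peak of the shared sites (85.5), is not shown. Its closest stretch had 4 mismatches. A stretch with at most 3 mismatches is common in promoter windows. It was in 78 of 473 shared-site windows (16.5%), in 15.2% of windows at other isolated-cell PPARb peaks and in 24.6% of all 32851 windows.

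No window at a shared site held the full repeat, and 8 of 473 (1.69%) held it with at most 2 mismatches, against 3 of 165 (1.82%) windows at other isolated-cell PPARb peaks and 1268 of all 32851 windows (3.86%). Those 8 belonged to Etfa, Hspe1, Atg2a, Cfap61, Git2, Foxk2, Xrcc5 and Pold3. All had an HA peak, near the 89.7% of all shared sites that had one, with heights between 15.8 at Xrcc5 and 88.7 at Etfa. The single word AGGTCA was in 34 shared-site windows (7.19%), in 21 of 165 windows (12.7%) at other isolated-cell PPARb peaks and in 16.3% of all windows. Among shared-site windows it was in 19 of 194 (9.79%) where the HA peak reached the median height of the shared sites, in 13 of 226 (5.75%) with a lower HA peak and in 2 of 53 (3.77%) with none. The Quaking word ACTAAC was in 17 windows (3.59%), against 4.42% of 4208 windows at the rest of the differentiated-cell sites of both factors and 6.09% of all windows.

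Words of general promoter factors were common at the shared sites. CCGGAAG stood in 148 windows (31.3%), against 34 (20.6%) at other isolated-cell PPARb peaks, 23.9% at the rest of the differentiated-cell sites of both factors and 8.86% of all windows. GGGCGG, which SP and KLF factors bind, was in 71.2% of shared-site windows, against 76.4%, 72.2% and 35.7% in the same 3 sets. The CCAAT word of NFY was in 37.6%, against 49.1%, 38.8% and 37.4%. AAGATGGCG, a YY1 word, was in 25 windows (5.29%), against 2.42%, 3.97% and 1.40%. TATAAA was in 14 windows (2.96%), against 3.64%, 5.06% and 13.6%. The median GC content of the windows was 64.3% at shared sites, 64.3% at other isolated-cell PPARb peaks, 62.7% at the rest of the differentiated-cell sites and 52.7% over all windows, and the part of base composition in these shares was not tested. A match is a description of letters in a window and not a binding site, and the words above can overlap.

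The 6 libraries held between 12624236 and 24880851 tags, and the shared sites took up very different shares of their lists. They were 58.4% of the 1391 isolated-cell PPARb peaks, 9.71% of 8375 isolated-cell Qki-5 peaks, 3.08% of 26404 differentiated-cell PPARb peaks and 2.69% of 30175 differentiated-cell Qki-5 peaks. The isolated-cell PPARb list set the number of sites, with 0.12% of its tags in peaks. A peak missing from that list means that none was called there. The differentiated-cell Qki-5 library had a like number of tags, 18078176 against 18389111 in isolated-cell PPARb, and many more peaks, and the cause was not tested. Of the 578 PPARb peaks of isolated cells that were not shared, 127 lacked the isolated-cell Qki-5 peak alone, 88 lacked the differentiated-cell PPARb peak alone, 57 lacked the differentiated-cell Qki-5 peak alone, and 137 had none of the 3. The centres lay close together: the median distance to the isolated-cell PPARb centre was 43 bp for isolated-cell Qki-5, 49 bp for differentiated-cell PPARb and 53 bp for differentiated-cell Qki-5. The 4 centres of a site spanned a median of 100 bp (quartiles 64 and 142). Just inside the limit were a site in the region beyond Tmtc2, one at Tarsl2 and one beyond Ccne1, with farthest centres at 198, 197 and 196 bp and isolated-cell PPARb heights of 7.07, 8.16 and 7.61. Just outside, at 201 bp, were PPARb peaks at Zbtb37, Hps5 and Anapc13 with heights of 9.24, 9.24 and 12.

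Peak height is the authors' normalized tag count, in tags per 10000000 tags of the library. At shared sites the isolated-cell PPARb height had a median of 8.16 (quartiles 7.07 and 9.24, range 5.98 to 17.9), against 7.61 in the rest of that list, and a site held 11 to 33 tags. The isolated-cell Qki-5 height had a median of 12.8 at shared sites (range 5.50 to 42.1), against 9.16 in the rest. In differentiated cells the PPARb height had a median of 14.7 at shared sites (range 6.23 to 40.1), against 9.35 in the rest, and the Qki-5 height had a median of 19.4 (range 6.08 to 58.1), against 11.1 in the rest. The other isolated-cell PPARb peaks that had a peak of these lists under 200 bp away lay between: their median height was 11 in isolated-cell Qki-5 (249 peaks), 13.8 in differentiated-cell PPARb (221 peaks) and 16 in differentiated-cell Qki-5 (243 peaks). The shared sites thus sat high in the other 3 lists that chose them and near the middle of the isolated-cell PPARb list itself. Their median percentile rank by height was 56.5 in the isolated-cell PPARb list, 78.1 in isolated-cell Qki-5, 84.4 in differentiated-cell PPARb and 90.3 in differentiated-cell Qki-5. By the authors' fold over input the same ranks were 50.3, 71.8, 58.1 and 65.9.

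**Figure D1:**
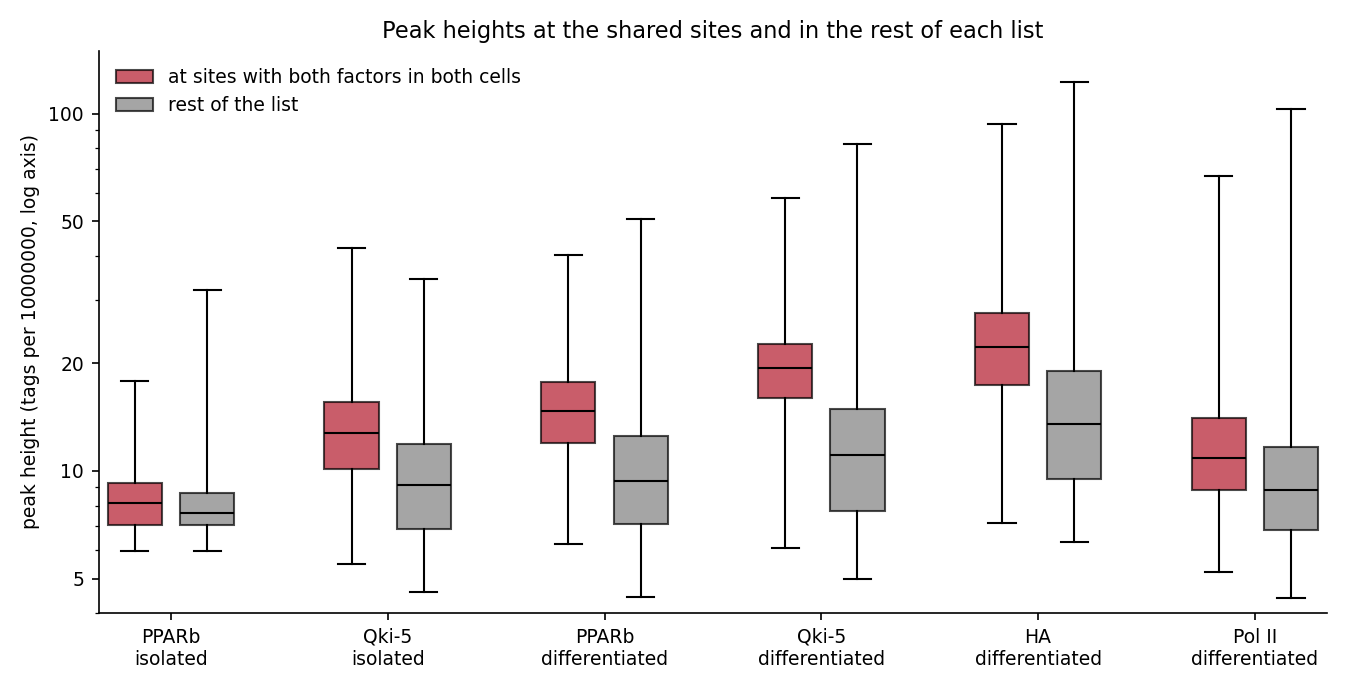
Peak height (tags per 10000000, log axis) in each of the 6 peak lists, at shared sites (red, left) and in the rest of the list (grey, right). Boxes span the quartiles with a line at the median, and whiskers reach the lowest and highest peak; medians at shared sites ran from 8.16 in isolated-cell PPARb to 22.2 in HA.

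The HA and Pol II libraries took no part in the choice of sites. Where a shared site had an HA peak, its median height was 22.2 (range 7.13 to 93.5, 729 sites), against 19.8 at other isolated-cell PPARb peaks with HA (275 peaks) and 13.5 in the rest of the HA list. Where it had a Pol II peak, the median height was 10.9 (range 5.22 to 67.1, 499 sites), against 11.3 at other isolated-cell PPARb peaks with Pol II (185 peaks) and 8.84 in the rest of the Pol II list. So Pol II peaks were no taller at shared sites than at the other isolated-cell PPARb peaks that had one. Median percentile ranks at shared sites were 84.6 for HA and 68.0 for Pol II by height, and 64.0 and 50.8 by fold over input.

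The tallest isolated-cell PPARb peaks were not shared. The 7 tallest lacked at least 1 of the partner peaks. The tallest of all, with a height of 32.1, lay 20707 bp from Foxf1 with no peak centre of any other library under 200 bp away. From the 8th place on the shared sites were frequent: 3 of the 10 tallest, 30 of the 50 tallest and 64 of the 100 tallest PPARb peaks of isolated cells were shared. By quintiles of height, from low to tall, 48.0%, 50.4%, 62.6%, 62.9% and 68.3% of the list was shared, with tied heights split between neighbouring quintiles.

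Hjurp, which encodes the chaperone that loads the centromeric histone, had the site with the highest ranks by height across the 4 libraries. Its heights were 17.9 for PPARb and 29.8 for Qki-5 in isolated cells, and 40.1 for PPARb, 52.5 for Qki-5, 57.8 for HA and 16.9 for Pol II in differentiated cells. The 95% exact Poisson intervals ran from 12.4 to 25.2 for isolated-cell PPARb and from 32.2 to 49.2 for differentiated-cell PPARb, and they cover counting error only. By fold over input the Hjurp site stood under the median of shared sites in every library. The folds were 4.38 for PPARb and 6.61 for Qki-5 in isolated cells, against medians of 5.98 and 8.95. In differentiated cells they were 9.5 for PPARb, 12.47 for Qki-5, 12.19 for HA and 4.0 for Pol II, against 11.8, 15.4, 18.8 and 10.3. The Hjurp peak, at chr1:88277540-88277740 in mm10 as are all positions here, was centred 4 bp inside the gene's annotated boundary and at -61 bp from an annotated start, where a negative sign means upstream.

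Other sites with high ranks in all 4 libraries followed. Calm3, a calmodulin gene, had 12.5 for PPARb and 25.7 for Qki-5 in isolated cells, and 22.7 for PPARb, 54.8 for Qki-5 and 38.0 for HA in differentiated cells. Its nearest Pol II centre was 345 bp away. Nup133, a nuclear pore subunit, had 12 and 22.4 in isolated cells, and 20.9, 29.9, 30.1 and 10 in differentiated cells, in the order PPARb, Qki-5, HA and Pol II. Rpl27, a protein of the large ribosomal subunit, had 15.8 and 30.7 in isolated cells, and 18.7, 24.9, 15.8 and 10.9 in differentiated cells in the same order. Another 7 of the 12 best-ranked sites lay 406 bp downstream of an annotated start of Tarbp2, a partner of Dicer, at Chmp7, at Dgat1, which makes triglyceride, at Nupl1, and at 3 sites that each had 2 genes within 1000 bp: BC005624 with Usp20, Htra2 with Aup1, and Neurl4 with 2810408A11Rik.

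Other sites stood out in 1 factor. Kmt2a, a histone methyltransferase gene, had, beside the PPARb peak at chr9:44881406-44881606, the tallest Qki-5 peak of the whole isolated-cell list, at 42.1, and the tallest differentiated-cell Qki-5 peak of any shared site, at 58.1. PPARb at that site was 9.24 in isolated cells and 19.1 in differentiated cells, and HA was 41.2. The promoter shared by Ndufb5, a subunit of respiratory complex I, and Mrpl47, a mitochondrial ribosomal protein, had isolated-cell heights of 29.8 for Qki-5 and 7.07 for PPARb. Mknk2, a kinase of the translation factor eIF4E, had 15.8 for PPARb and 15.6 for Qki-5 in isolated cells. Csnk1g2, a casein kinase gene, had 27.5 for Qki-5 in isolated cells, with 28.9 for PPARb and 61.0 for HA in differentiated cells.

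Across the 813 sites heights followed each other loosely. Spearman's rho was 0.44 between PPARb and Qki-5 in isolated cells and 0.56 between them in differentiated cells. Between isolated and differentiated cells it was 0.27 for PPARb and 0.51 for Qki-5. Across both cells and factors it was 0.38 between isolated-cell Qki-5 and differentiated-cell PPARb, and 0.32 between isolated-cell PPARb and differentiated-cell Qki-5, both above the value for PPARb between cells. HA heights followed differentiated-cell PPARb at 0.57 (729 sites), differentiated-cell Qki-5 at 0.36 and isolated-cell PPARb at 0.12. Pol II heights followed the other 5 libraries at 0.05 to 0.19. These values are descriptions over sites, which share input libraries within a kind of cell and base composition throughout, and the isolated-cell PPARb heights span few tags.

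HA, the tag on the introduced receptor, had a peak centre under 200 bp away at 729 of 813 shared sites (89.7%, 95% exact interval 87.4 to 91.7). The share was 275 of 578 (47.6%, 43.4 to 51.7) at the other isolated-cell PPARb peaks, and 72.2% over all 1391. The rule had asked for a differentiated-cell PPARb peak, from the same cells and called against the same input as HA. Set against the 18836 other differentiated-cell sites of both factors, where HA was at 82.1% (82.5% with the shared sites included), the difference was smaller. Distances at the differentiated-cell sites were taken from the differentiated-cell PPARb centre. Taken from that centre, 817 sites had both factors in both cells, with HA at 91.7%. Within 1000 bp an HA peak lay beside 802 shared sites (98.6%), against 73.7% of the other isolated-cell PPARb peaks.

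Pol II had a peak centre under 200 bp away at 499 shared sites (61.4%, 57.9 to 64.7). The share was 185 of 578 (32.0%, 28.2 to 36.0) at the other isolated-cell PPARb peaks and 49.2% over all of them. At the other differentiated-cell sites of both factors it was 43.0%, and 43.8% with the shared sites included. Shared sites taken from the differentiated-cell PPARb centre, as those sites are, had Pol II at 63.5%. HA and Pol II both had peaks at 471 shared sites (57.9%), HA alone at 258 (31.7%), Pol II alone at 28 (3.44%) and neither at 56 (6.89%). Isolated-cell sites of both factors that missed at least 1 differentiated-cell partner had HA at 109 of 249 (43.8%) and Pol II at 70 (28.1%), and isolated-cell PPARb peaks without Qki-5 there had HA at 50.5% and Pol II at 35.0%. Among the latter, the 127 peaks with both differentiated-cell partners had HA at 107 and Pol II at 68. The 137 peaks with no partner at all had HA at 24 and Pol II at 23. The rule asked for differentiated-cell peaks of both factors, from the same cells as the HA and Pol II libraries.

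**Figure D2:**
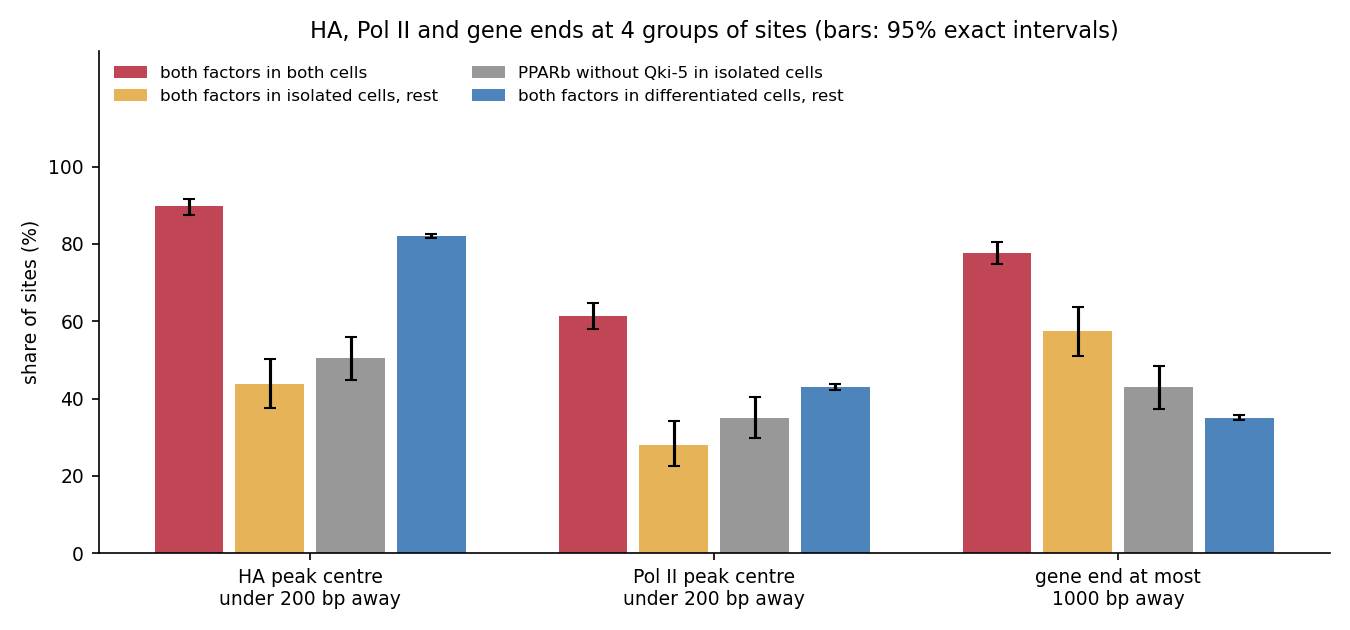
Share of sites (%) with an HA peak, a Pol II peak and a protein-coding gene end, at shared sites (red), at other isolated-cell sites of both factors (yellow), at isolated-cell PPARb peaks without Qki-5 (grey) and at the rest of the differentiated-cell sites of both factors (blue). Bars carry 95% exact intervals, and shared sites had 89.7%, 61.4% and 77.7%. Distances were taken from the isolated-cell PPARb centre, and for the blue bars from the differentiated-cell PPARb centre.

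Shared sites were concentrated among tall PPARb peaks of differentiated cells, so HA and Pol II were also set side by side at like heights. Over the 19653 differentiated-cell sites of both factors, 0.280%, 1.17%, 2.98%, 5.52% and 10.8% had both isolated-cell peaks, from the lowest to the tallest quintile of PPARb height. All distances in this comparison were taken from the differentiated-cell PPARb centre, which gives 817 shared sites. In the 3 upper quintiles HA was at 86.3%, 89.9% and 94.6% of shared sites, against 86.5%, 90.3% and 93.8% of the rest, differences of less than 1 point. Pol II in the same quintiles was at 47.9%, 68.2% and 66.2% of shared sites, against 45.8%, 56.4% and 63.3% of the rest. In the middle and the tallest quintile the interval at shared sites covered the value of the rest for Pol II, and in the fourth it did not. A gene end was within 1000 bp at 75.2%, 86.2% and 74.2% of shared sites in these quintiles, against 41.0%, 44.0% and 36.2% of the rest. At like PPARb height the intervals of the gene-end shares stayed apart in these quintiles, and those of the HA shares overlapped. In the 2 lower quintiles, with 11 and 46 shared sites, HA was at 90.9% and 87.0%, against 63.5% and 78.0% of the rest, and Pol II at 54.5% and 58.7%, against 19.8% and 32.5%.

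**Figure D3:**
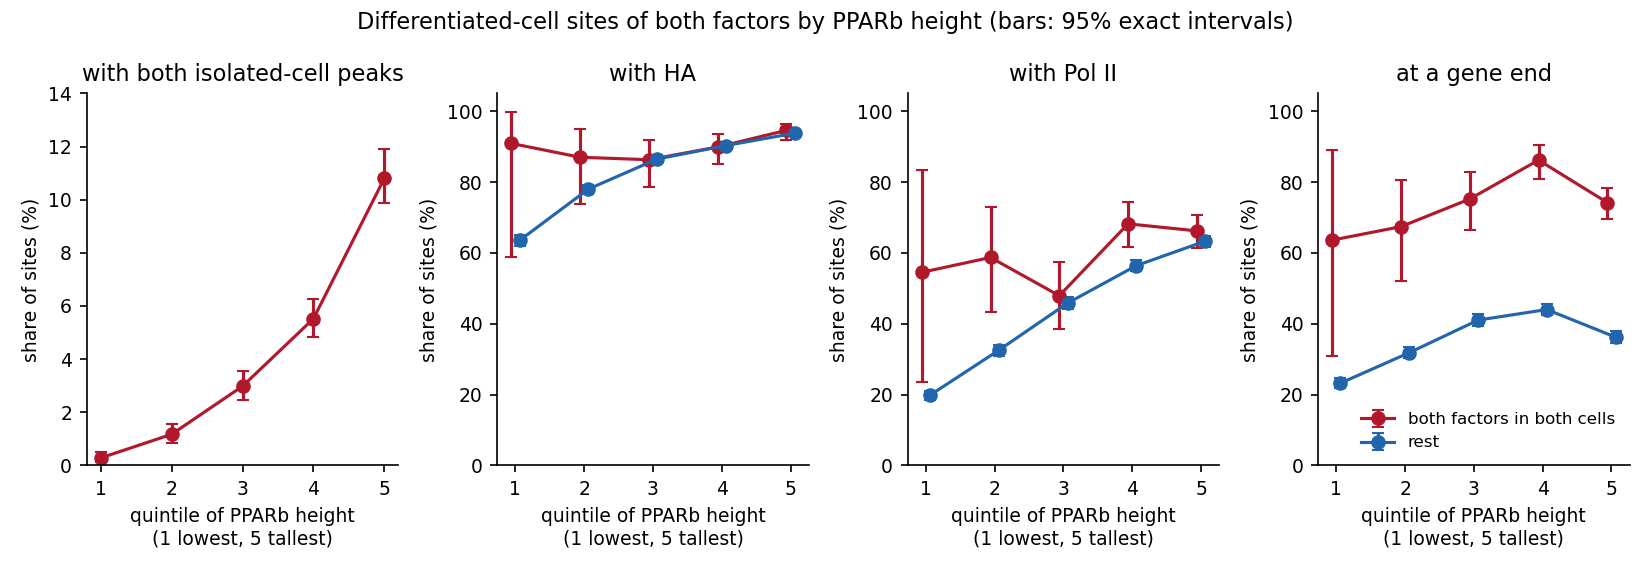
Differentiated-cell sites of both factors by quintile of PPARb height: the share (%) that also had both isolated-cell peaks, and the shares with HA, with Pol II and within 1000 bp of a gene end at shared sites (red) and the rest (blue). Bars are 95% exact intervals, and all distances were taken from the differentiated-cell PPARb centre. HA shares meet in the 3 upper quintiles while gene-end shares stay apart.

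The 4 tallest HA peaks of the shared sites lay at Mlycd, Lpcat3, Etfa and Klf11. Mlycd, whose enzyme breaks down malonyl-CoA and so relieves the block on fatty acid oxidation, had 93.5 for HA (95% exact Poisson interval 77.4 to 112). Its other heights were 8.16 for PPARb and 14.2 for Qki-5 in isolated cells, and 25.4 for PPARb and 19.9 for Qki-5 in differentiated cells. Lpcat3, which puts polyunsaturated chains into phospholipids, had 88.7 for HA, with 7.07 and 9.16 for PPARb and Qki-5 in isolated cells and 22.3 and 12.7 in differentiated cells. Etfa, a subunit of the flavoprotein that takes electrons from fatty acid oxidation, had 88.7 for HA, with 10.9 and 5.95 in isolated cells and 16.9 and 13.8 in differentiated cells in the same order. Klf11, a Krüppel-like transcription factor gene, had 85.5 for HA, with 12 and 16.9 in isolated cells and 22.3 and 13.8 in differentiated cells. Qki-5 in differentiated cells was between 12.7 and 19.9 at these 4 sites, around or under the 19.4 that was the median of shared sites. Of the 4, Etfa had a Pol II peak centre under 200 bp away, at 12.1.

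Sites without an HA peak centre under 200 bp away included tall isolated-cell peaks. Ep400, a chromatin remodeller gene, had 13.6 for PPARb and 16.9 for Qki-5 in isolated cells, and 11.6 and 22.7 in differentiated cells. Its nearest HA and Pol II centres were 382 and 244 bp away. Snd1 had 13.6 and 17.4 in isolated cells, and 12.9 and 21 in differentiated cells. Its nearest HA and Pol II centres were 294 and 56623 bp away. Cdk4, a kinase gene of the cell cycle, had 10.9 and 19.7 in isolated cells, and 16.9 and 28.2 in differentiated cells. Cdkn2aip had its nearest HA centre 202 bp away, just past the limit, and had a Pol II peak of 16.9. Over the 56 sites with neither HA nor Pol II under 200 bp away the differentiated-cell PPARb height had a median of 12.9. Over the 471 with both it was 15.1, while the isolated-cell PPARb height had a median of 8.16 in both sets.

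Tall Pol II peaks among the shared sites lay at Glul, Ccnyl1 and Nop56. Glul, glutamine synthetase, had 44.6 for Pol II, with 7.61 for PPARb and 10.5 for Qki-5 in isolated cells, and 11.6 and 14.4 in differentiated cells. Ccnyl1 had 40.2 and Nop56, a core protein of small nucleolar ribonucleoproteins, had 38.6. Acly, which makes acetyl-CoA for lipid synthesis, had 31.8. At Nop56 the isolated-cell heights were 7.07 for PPARb and 7.79 for Qki-5, both under the medians of shared sites.

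Most shared sites lay at the ends of genes. A protein-coding gene end, here called a boundary, whether the gene starts or stops there, was within 1000 bp of 632 of 813 (77.7%, 95% exact interval 74.7 to 80.6). The share was 284 of 578 (49.1%, 45.0 to 53.3) at the other isolated-cell PPARb peaks and 65.9% over all 1391. It was 35.1% at the rest of the differentiated-cell sites of both factors, against 77.0% at shared sites taken from the same differentiated-cell PPARb centre. The 578 other peaks were uneven. Of the 88 that lacked the differentiated-cell PPARb peak alone, 72 were at a boundary, so a high share was not particular to shared sites. Boundary peaks were 72 of the 127 that lacked isolated-cell Qki-5 alone and 37 of the 57 that lacked differentiated-cell Qki-5 alone. They were 39 of the 137 with no partner. The median distance to a boundary was 107 bp at shared sites, against 1132 bp at the other isolated-cell PPARb peaks. Of the 632, 135 sites (21.4%) had 2 or more genes within 1000 bp, against 48 of 284 (16.9%). Counting annotated starts of any record in the promoter table, 697 sites (85.7%) were at a boundary or a start, against 336 (58.1%).

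At the 613 shared sites within 1000 bp of an annotated start, both factors sat just upstream of it and Pol II just downstream. The median position was -34 bp for PPARb and -46 bp for Qki-5 in isolated cells, and -40 bp for PPARb, -40 bp for Qki-5 and -24 bp for HA (547 sites) in differentiated cells. The median for Pol II was 55 bp downstream (377 sites with a centre under 200 bp away), and 61 bp over the 532 sites with a Pol II centre within 1000 bp. Centres were upstream at 63.9% of sites for isolated-cell PPARb, 64.9% for isolated-cell Qki-5, 69.8% for differentiated-cell PPARb and 69.0% for differentiated-cell Qki-5, against 32.9% for Pol II.

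**Figure D4:**
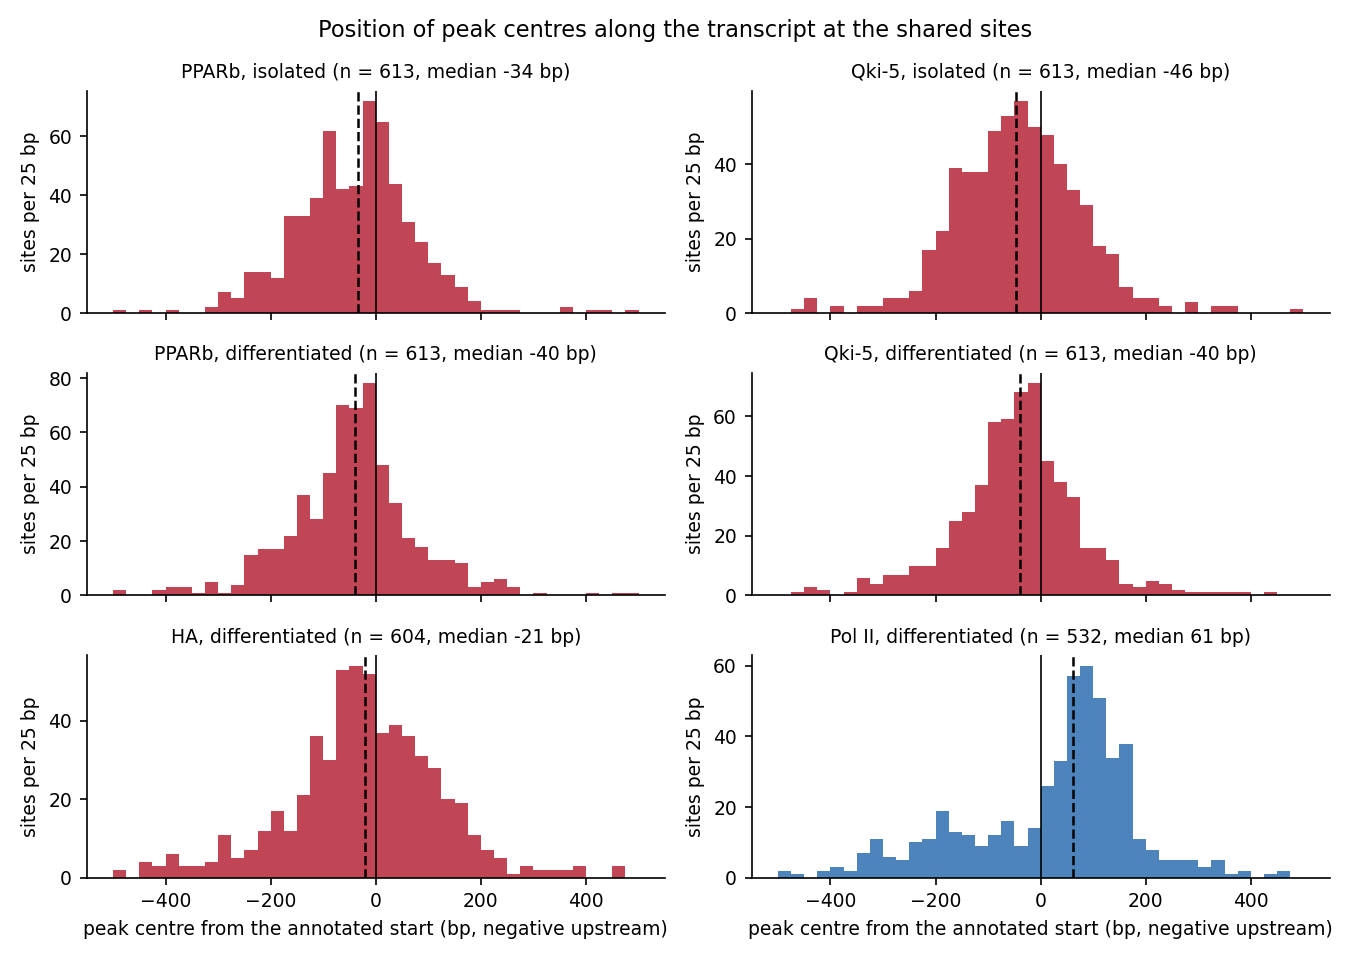
Number of shared sites per 25 bp by distance of the peak centre from the annotated start (bp, negative upstream; solid line at the start, dashed line at the median), for each library. PPARb, Qki-5 and HA centre upstream, between -46 and -21 bp, and Pol II at 61 bp; HA and Pol II panels count centres within 1000 bp of the site.

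Away from boundaries lay 181 shared sites, 121 of them inside a gene and 60 outside, and 65 of the 181 were at an annotated start that the gene record's ends do not show. Cox5a, a subunit of cytochrome c oxidase, was such a site, 3852 bp from the gene's boundary and at -52 bp from an annotated start. It had 14.7 for PPARb and 18.8 for Qki-5 in isolated cells, and 15.1, 18.8, 24.6 and 22.9 for PPARb, Qki-5, HA and Pol II in differentiated cells. At the 116 sites away from both boundaries and starts HA was at 102 (87.9%) and Pol II at 63 (54.3%), against 89.7% and 61.4% over all shared sites. Their 95% exact intervals, 80.6 to 93.2 for HA and 44.8 to 63.6 for Pol II, cover those values.

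In the median, sites away from boundaries had lower isolated-cell Qki-5 and taller HA peaks than sites at boundaries. The isolated-cell Qki-5 height had a median of 11.5 away from boundaries, against 13.3 at boundaries, and HA had 24.2 against 21.4. The isolated-cell PPARb height had a median of 8.16 in both sets. A site 38957 bp from Ptma, at chr1:86487500-86487700, had 10.9 for PPARb and 28.4 for Qki-5 in isolated cells, and 31.2, 29.9 and 84.0 for PPARb, Qki-5 and HA in differentiated cells. A site inside Bcl2l1, a gene of cell survival, at chr2:152820346-152820546, had 13.1 and 23.8 in isolated cells, and 18.7, 19.4 and 20.6 in differentiated cells. It lay 8043 bp downstream of an annotated start and 13357 bp from the gene's boundary. A site inside Klf15 had 12.5 and 13.7 in isolated cells, and 21.4, 22.7, 30.1 and 10.4 in differentiated cells, with Pol II last. It lay 1065 bp downstream of an annotated start and 2598 bp from the gene's boundary. A site 31204 bp from Ptpdc1 had 12 and 11 in isolated cells and 11.6 and 16.6 in differentiated cells. Its nearest HA and Pol II centres were 546 and 266 bp away. Over 50000 bp from any boundary were 15 shared sites, against 76 of the other isolated-cell PPARb peaks.

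Chromosome 11 held 80 shared sites (9.84%) and chromosome 2 held 72 (8.86%), near the 8.55% and 8.48% of all isolated-cell PPARb peaks that lay there. Chromosome X held 1, of 4 isolated-cell PPARb peaks there. That list had 0.288% of its peaks on chromosome X, where the other 5 lists had 1.48% to 1.70%, and the animals' sex was not stated.

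Of 21887 protein-coding genes, 769 (3.51%) had a shared site within 1000 bp of an end, against 7957 (36.4%) for differentiated-cell sites of both factors. Dnajb12, Hdlbp, Neurl4 and Septin2 had 2 shared sites each, and Hdlbp and Septin2 are neighbours. A Pol II peak lay within 1000 bp of an end at 672 of the 769 genes (87.4%), against 36.4% of all genes.

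The 5 highest shares among lists of at least 10 genes were these. Translation factors had 7 of 38 genes with a shared site (18.4%), proteasome subunits 5 of 31 (16.1%), cytosolic ribosomal proteins 8 of 54 (14.8%), chaperones 4 of 30 (13.3%) and splicing factors 5 of 38 (13.2%), each against 3.51% over all genes. The ribosomal genes were Rpl27, Rpl13a, Rpl12, Rps7, Rps18, Rpl18, Rps16 and Rpl37, with isolated-cell PPARb heights between 6.53 and 15.8. An HA peak was at all 8, near the 89.7% of all shared sites. The translation factors were Eif2b1, Eef1b2, Pabpc1, Eif2s2, Eif3f, Eif5 and Eif6. The chaperone genes Hspd1 and Hspe1, which encode the mitochondrial chaperonin and its lid, share 1 promoter, and its heights were 9.79 and 22.9 in isolated cells and 28.9, 32.1 and 55.4 for PPARb, Qki-5 and HA in differentiated cells. Genes of these lists are active in most cells. Differentiated-cell sites of both factors were at 73.7% to 93.3% of the genes of these 5 lists, against 36.4% of all genes. Pol II was at 84.2% to 90.7% of their genes, also against 36.4% of all. The 3.51% covers genes with and without Pol II: of the 7956 genes with a Pol II peak, 672 had a shared site.

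Lists of mitochondrial energy metabolism were also above the 3.51% of all genes. That background covers genes with and without Pol II, and the lists were not set against genes with Pol II alone. Pol II was at 79.6% of respiratory chain and ATP synthase genes, 81.5% of fatty acid oxidation genes and 87.5% of citric acid cycle genes. The respiratory chain and ATP synthase had 7 of 54 genes (13%), Ndufa10, Ndufs1, Cycs, Cox5b, Atp5g2, Ndufb5 and Atp5c1. HA was at all 7 sites, near the 89.7% of all shared sites. The Ndufs1 site is also that of the translation factor Eef1b2, whose boundary is nearest, at 71 bp, so it counts in both lists. Fatty acid oxidation had 3 of 27 (11.1%). These were Etfa, described above, and Hadha with Hadhb, the 2 subunits of the mitochondrial trifunctional protein, which share 1 promoter and 1 site. That site had 8.16 for PPARb and 16.9 for Qki-5 in isolated cells, and 12.9, 22.7 and 21.4 for PPARb, Qki-5 and HA in differentiated cells, and it was the 1 shared site among 24 known PPAR targets (4.17%). The citric acid cycle had 2 of 24 (8.33%), Cs and Dlat. Mitochondrial ribosomal proteins had 3 of 56 (5.36%), although 80.4% of those genes had a differentiated-cell site of both factors.

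Each list of lipid synthesis had 1 or 2 genes with a shared site. Cholesterol synthesis and uptake had 2 of 25 (8%), Srebf2, the transcription factor of the pathway, and Lss, lanosterol synthase. Srebf2 had 10.3 for PPARb and 11.9 for Qki-5 in isolated cells, and 12, 14.4, 17.4 and 10.4 for PPARb, Qki-5, HA and Pol II in differentiated cells. Fatty acid synthesis and desaturation had 1 of 33 (3.03%), Acly, with 9.24 and 7.79 in isolated cells and 9.35, 10.5, 11.1 and 31.8 in differentiated cells. Sphingolipid and galactolipid genes had 1 of 24 (4.17%), Degs1, a desaturase of ceramide synthesis, with its nearest HA centre 206 bp away. The shares of the last 2 lists and of the PPAR targets were near the 3.51% of all genes.

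Among 31 genes of PPAR and RXR receptors and their coregulators, Rxrb, a dimer partner of PPARb, had a shared site (3.23%), with 7.61 and 11.9 in isolated cells and 17.8, 18.8 and 14.9 for PPARb, Qki-5 and Pol II in differentiated cells, and no HA peak under 200 bp away. Atf4, a transcription factor of the amino acid stress response, was 1 of 31 immediate-early and growth-arrest genes, with 12 and 25.7 in isolated cells and 15.6, 30.4 and 21.4 for PPARb, Qki-5 and HA in differentiated cells. The circadian repressors Cry1 and Per2 were 2 of 16 clock genes (12.5%). RNA polymerase II and Mediator had 4 of 41 (9.76%), Med4, Polr2c, Med11 and Med17, and of 4 matched small nucleolar RNA host genes Nop56 had one. Of 5 STAR RNA-binding protein genes, the family of Quaking, none had a shared site, nor had any of 21 replication-type histone genes; in lists this short a count of 0 is near the 3.51% of all genes.

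**Figure D5:**
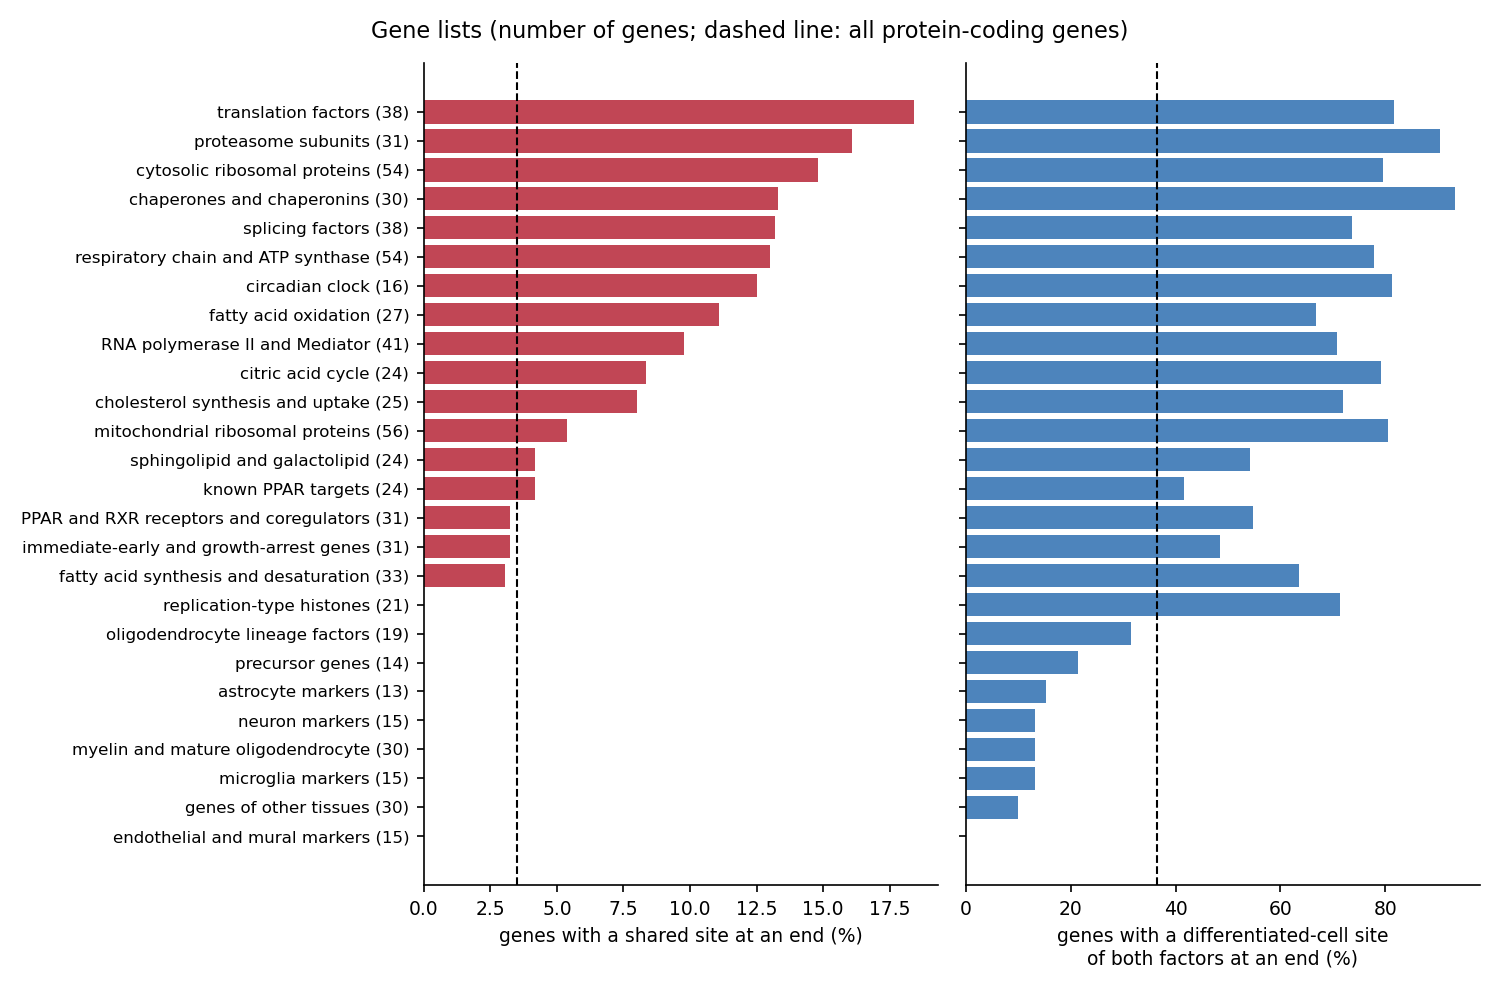
Share of genes (%) with a shared site within 1000 bp of an end (left, red) and with a differentiated-cell site of both factors there (right, blue), for gene lists of at least 10 genes, with the number of genes in brackets. Dashed lines mark all protein-coding genes, 3.51% and 36.4%; the 9 lists at the bottom have no shared site.

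The lists of oligodendrocyte genes held no shared site. None of 30 myelin and mature oligodendrocyte genes, 19 lineage factors and 14 precursor genes had a shared site within 1000 bp of an end, and none of the astrocyte, neuron, microglia, endothelial or other-tissue lists had one. With 3.51% over all genes, a count of 0 in lists of this length is near the background. In the isolated cells 14 of the 30 myelin genes (46.7%) had a Qki-5 peak there, against 26.4% of all genes. An isolated-cell PPARb peak lay there at none of the 30 myelin genes, against 5.01% of all genes, so none of the 30 could have a shared site there. Of the 30 myelin genes, 4 (13.3%) had a differentiated-cell site of both factors. Pol II was at 4 of the 30 in differentiated cells (13.3%), against 36.4% of all genes, so the cells labelled as differentiated oligodendrocytes had Pol II peaks at few of the myelin genes. In the same cells Pol II was at 10 of the 19 lineage factors (52.6%) and at 5 of the 14 precursor genes (35.7%). Mbp, myelin basic protein, had 2 isolated-cell PPARb peaks, with a tallest height of 8.70, and Sox10, a lineage factor, had one of 9.79, none of them shared. These peaks lay over 1000 bp from the ends of their genes. Within 5000 bp of Olig1, a lineage factor, there was a shared site, 3602 bp away at chr16:91266067-91266267, with 10.3 and 7.79 for PPARb and Qki-5 in isolated cells and 22.7, 21 and 35.6 for PPARb, Qki-5 and HA in differentiated cells.

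Some single genes of interest had no shared site. Angptl4, an inhibitor of lipoprotein lipase, had an isolated-cell PPARb peak of 19 with differentiated-cell Qki-5, PPARb and HA peaks beside it, and lacked an isolated-cell Qki-5 peak. Cpt1a, the entry enzyme of mitochondrial fatty acid oxidation, had an HA peak of 123 and no isolated-cell PPARb peak within 5000 bp. Pdk4 had no peak in any library within 5000 bp. Ppard itself had an isolated-cell PPARb peak of 6.53 with Qki-5 in both kinds of cell and no differentiated-cell PPARb centre within 199 bp. Plin2, Qk, Rxra, Rxrg and Olig2 had no isolated-cell PPARb peak within 5000 bp and so no shared site.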

How the data were processed

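ChIP-seq peak lists of 6 antibody libraries were used, with 2 input libraries behind them. Per the file headers, the authors called peaks with HOMER findPeaks at a false discovery rate of 0.001, at 4-fold and a Poisson p-value of 0.0001 over input, and at 4-fold over the surrounding 10000 bp, on tag directories without duplicates. The submitters' processing notes name HOMER 4.10.1, SAMtools 1.8, Bowtie 1.2.2, Trim Galore 0.4.4, bcl2fastq 2.19.1.403 and the build mm10, without roles. Per the file headers, the word merge stands in the names of the isolated-cell input and the differentiated-cell Qki-5 tag directories, with nothing on what was joined. Per the file headers, the normalized tag count is a signal that the authors scaled to 10000000 tags per library, and it is called the height. Folds over input and over the local region are ratios that the authors deposited. The deposited total tags are raw counts in 4 lists and a signal scaled to the input depth in the differentiated-cell PPARb and Pol II lists, per the file headers. The deposited findPeaks score was not used.

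Peaks are 200 bp wide, and a partner was the peak whose centre lay nearest, at most 199 bp away. Gene ends came from RefSeq GRCm38.p6 (21887 protein-coding genes), and starts and strand from RefSeq promoter windows, which exist for 17492 of them. Words were searched on both strands. Intervals are 95% exact: Clopper-Pearson for shares and Poisson for single heights, both for counting error only. Scripts ran on Python 3.11.15 with numpy 2.4.6, pandas 2.3.3 and scipy 1.17.1, and were tested on simulated data. Named sites were those with the highest smallest percentile rank over the 4 libraries, the tallest per library, away from boundaries, and without HA or Pol II, and those nearest the distance limit. Besides these, genes of 28 lists with a shared site were named, and 14 genes in any case. Of 779 list entries, 10 matched no gene. The members and lists were chosen with earlier results of these data known. Alternatives were other distances, an 8-fold minimum over input, the 5000 tallest peaks of each list, ranks by fold over input, another anchor list and other boundary windows. Peaks on other contigs were left out, and 2 isolated-cell PPARb peaks were there. Some sites and genes that these rules name are not reported here.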

Additional observations from a re-analysis of the deposited data

How the results depend on the processing

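The number of shared sites was set by the distance and by the peak thresholds: 488 at 100 bp, 170 at 50 bp, 118 with at least 8-fold over input in every list and 377 among the 5000 tallest peaks of each list, against 813. The HA share was 93.6% at 100 bp, 94.7% at 50 bp, 83.5% at 400 bp, 85.6% at 8-fold, 62.3% among the 5000 tallest and 98.6% with HA within 1000 bp, against 89.7%. The Pol II share was 68.8% at 50 bp, 54.2% at 8-fold, 43.0% among the 5000 tallest and 84.3% within 1000 bp, against 61.4%. The 5000-peak setting also shortens the HA and Pol II lists, so fewer partners remain by construction. The share at a gene boundary was 80.9% at 100 bp and 82.9% at 50 bp, and 74.2% with a 500 bp window and 86.2% with a 5000 bp window, against 77.7%. Ranks by fold over input were 64.0 in HA, 58.1 in differentiated-cell PPARb and 65.9 in differentiated-cell Qki-5, lower than by height, and the cause was not tested. The Pol II rank was 50.8 by fold against 68.0 by height, a move within the quartiles of the shared sites' ranks. The other 21 recomputed values, that one included, stayed within their 95% interval for a share, within 1.5 times for a count, and within those quartiles for a rank. No paired analysis was possible because each group has 1 library and no test was run.

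With 1 library per group no value carries a replicate error, and heights were compared within a list. Isolated-cell PPARb peaks at shared sites held 11 to 33 tags, which limits how finely those sites can be ranked.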
